A study of Mus musculus with 463 samples.

Results

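The cells described here are 59 single cells sorted as Pdx1-GFP positive from the ventral Pdx1 region of mouse embryos at E10.5, 1 group among 447 cells of the series. They were taken by their sample labels alone, with no expression value used, and fall into 3 numbered sets of 33, 22 and 4 cells. The embryos carried a Pdx1-GFP reporter, and the labels give no promoter fragment, strain or sex for it. The background group is 27 Pdx1-GFP positive cells of the dorsal Pdx1 region at E10.5, in sets of 11, 10 and 6 cells. Further E10.5 groups are used for single values: 39 ventral cells gated as Pdx1-GFP high, 39 gated as low, and ventral Pdx1-low cells split by the surface antigen Liv2 into 59 negative and 54 positive cells. A further 23 cells were sorted from the liver bud as Liv2 positive, and 44 ventral Pdx1-GFP positive cells came from E9.5. No group was treated or cultured by its labels, except that 25 of the 44 E9.5 cells carry a growth text on human stem cells. No label says what a numbered set stands for, such as 1 embryo, 1 litter or 1 plate. Every p-value below therefore reflects how much sets vary, and that variation could be technical. The model behind them took its spread from 37 sets of 11 sorted groups, not from the ventral and dorsal sets alone.

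At this stage the ventral foregut endoderm lies beside the forming liver and holds the precursors of ventral pancreas, extrahepatic bile duct and gallbladder. Pdx1 is a homeobox factor of pancreas and duodenum, and Ptf1a is a bHLH factor that fixes pancreatic fate and later drives acinar genes. Sox17 marks the biliary primordium within the Pdx1 domain, whereas Afp and Alb encode the main serum proteins of fetal hepatoblasts and Col1a1 and Col3a1 encode fibrillar collagens of mesenchyme. In GRCm38 the genes lie at chr5:147269959-147275848 (Pdx1), chr2:19445663-19447501 (Ptf1a), chr1:4490931-4497354 (Sox17), chr5:90490737-90508907 (Afp), chr5:90460897-90476602 (Alb), chr11:94936224-94953042 (Col1a1) and chr1:45311538-45349706 (Col3a1).

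Each cell was sequenced by Smart-seq2, which reads full-length cDNA of 1 cell without molecular identifiers. The ventral cells held 201191 to 1593018 reads on genes (median 580295) and 6552 to 12227 detected genes (median 9434). Set 2 was the deepest, with a median of 1015824 reads against 490992 in set 1 and 340523 in set 3. Levels of a cell are CPM, its reads on a gene scaled to a fixed total of reads on all genes, and a gene counts as held at 10 CPM or more. Intervals are exact 95% Clopper-Pearson intervals, and for a share of 0 the upper limit given is instead 3 cells over the cells of the group. Both cover counting error only. The epithelial marker Epcam was held by 58 of 59 cells, and so were the keratin genes Krt8 and Krt18. The exception, cell 2 of set 3, had no read of Epcam or Afp. Cell 3 of the same set had the fewest reads of all. Among 1711 pairs of ventral cells 0 had identical counts, and the highest correlation over genes was 0.917 against a median of 0.788. No doublet caller was run.

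Pdx1 transcript was held by 30 of the 59 sorted cells (50.8%, 37.5 to 64.1%). The other 29 were at or below 7.64 CPM, and 34 cells had at least 1 read. Only 3 cells lay between 5 and 20 CPM. Among the 30 holders Pdx1 ran from 14.9 to 458 CPM with a median of 213. By set the holders were 18 of 33, 10 of 22 and 2 of 4. Thus RNA of the gene that names the gate was unevenly spread within every set. Liver bud cells served as background: 0 of 23 held Pdx1 (upper limit of the share 13.0%), at a median of 1243844 reads. In the dorsal group 20 of 27 cells held it (74.1%), at a median of 806787 reads, with 9 of 11, 10 of 10 and 1 of 6 by set. All 39 cells of the Pdx1-high gate held Pdx1 (58.1 to 565 CPM), as did 13 of 39 of the Pdx1-low gate (18.4 to 170 CPM).

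Ptf1a was held by 18 cells (30.5%, 19.2 to 43.9%), with 10 in set 1, 7 in set 2 and 1 in set 3. Its levels in them ran from 19.9 to 209 CPM with a median of 129, and only 1 cell of the 59 lay between 5 and 20 CPM. All 18 held Pdx1 as well, so Ptf1a split the Pdx1 holders into 18 cells with it and 12 without. Ptf1a without Pdx1 was seen in 0 of the 59 (upper limit 5.08%). In the liver bud 0 of 23 cells held Ptf1a. Of the dorsal cells 16 of 27 held it (59.3%), again each with Pdx1, but unevenly by set: 6 of 11, 10 of 10 and 0 of 6.

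Sox17 was held by 26 cells (44.1%, 31.2 to 57.6%), from 14.9 to 779 CPM with a median of 264. Set 1 had 14 such cells, set 2 had 12, and set 3 had 0 of 4. Outside the ventral Pdx1+ cells, 1 of 27 dorsal cells (28.4 CPM) and 1 of 23 liver bud cells (22.5 CPM) held it, while 3 and 8 of these cells had at least 1 read. Sox17 was thus common in ventral sets 1 and 2 and was not held in ventral set 3, where 4 cells allow little to be said.

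**Figure D1:**
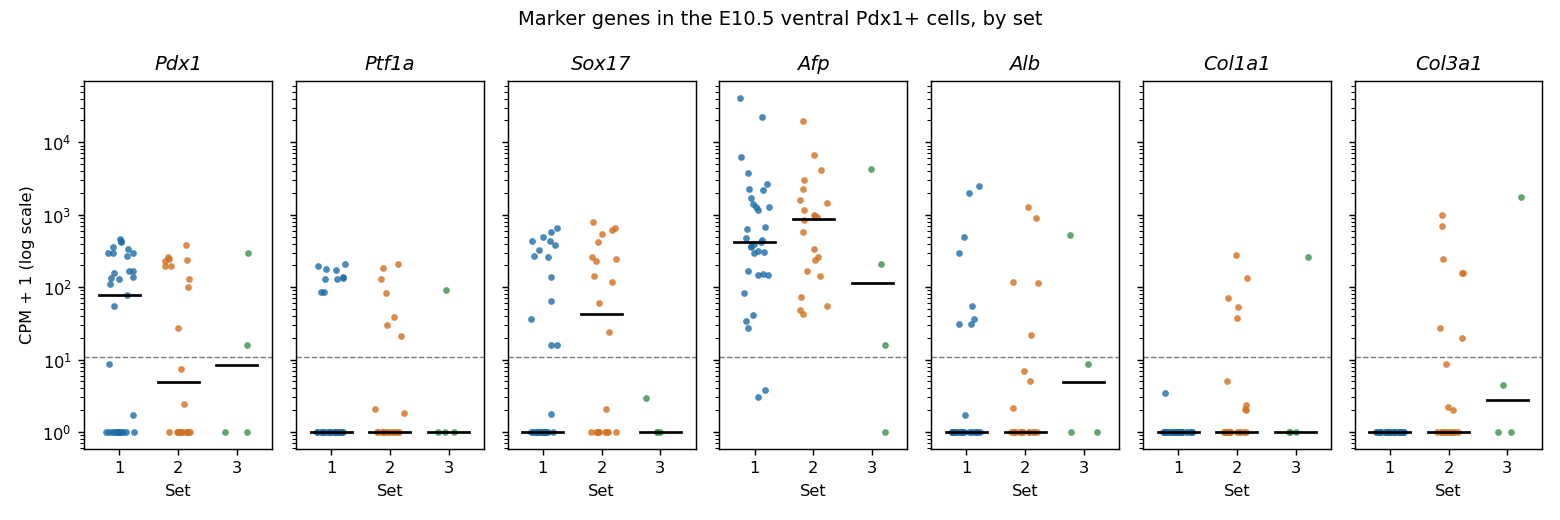
Level of each of the 7 markers in each of the 59 ventral cells, as CPM + 1 on a log axis, by numbered set (1, 2, 3); each point is 1 cell, the bar is the median of the set and the dashed line marks 10 CPM. Pdx1, Ptf1a and Sox17 are high in some cells and near 0 in others of the same set, whereas Afp is held by 56 of 59 cells over a wide range.

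Joint expression sorted most cells into few combinations of these 3 factors. Cells with Pdx1 and Ptf1a but not Sox17 numbered 17 (28.8%), and cells with Sox17 alone numbered 22 (37.3%). Another 9 held Pdx1 alone (15.3%), 3 held Pdx1 and Sox17, 1 held all 3, and 7 held none (11.9%). Both large classes occurred in sets 1 and 2: 10 and 6 cells with Pdx1 and Ptf1a, and 12 and 10 cells with Sox17 alone. Set 3 had 1 cell with Pdx1 and Ptf1a, 1 with Pdx1 alone and 2 with none of the 3. These classes are cut from the levels, so the levels of Pdx1, Ptf1a and Sox17 in them are set by the choice.

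Pdx1 and Sox17 met in 4 cells, 13.3% of the Pdx1 holders and 15.4% of the Sox17 holders. They made up 6.78% of the 59 cells, which became 10.2% at 5 CPM and 3.39% at 20 CPM, and cells 15 and 30 of set 1 held Sox17 at only 14.9 and 15.2 CPM. Cell 9 of set 2 held both clearly, with Pdx1 at 127 CPM and Sox17 at 117. Cell 16 of set 2 was the single cell with Ptf1a and Sox17, at 129 and 60.3 CPM, and its Pdx1 stood at 262 CPM. Its 1128278 reads and 10723 genes lay within the range of set 2.

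Other ventral groups give a measure of how often the factors meet. Ptf1a and Sox17 met in 4 of 39 Pdx1-high cells, 12.1% of the Ptf1a holders and 80.0% of the 5 Sox17 holders. Ventral Pdx1-low cells had no Ptf1a holder, with Sox17 in 26 of 39, 46 of 59 (Liv2 negative) and 37 of 54 (Liv2 positive). At E9.5, Pdx1 and Sox17 met in 19 of 44 cells, 67.9% of the 28 Pdx1 holders and 73.1% of the 26 Sox17 holders, and Ptf1a met Sox17 in 4 of its 5 holders. The stages were sorted separately, and the difference in joint holding was not tested.

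**Figure D2:**
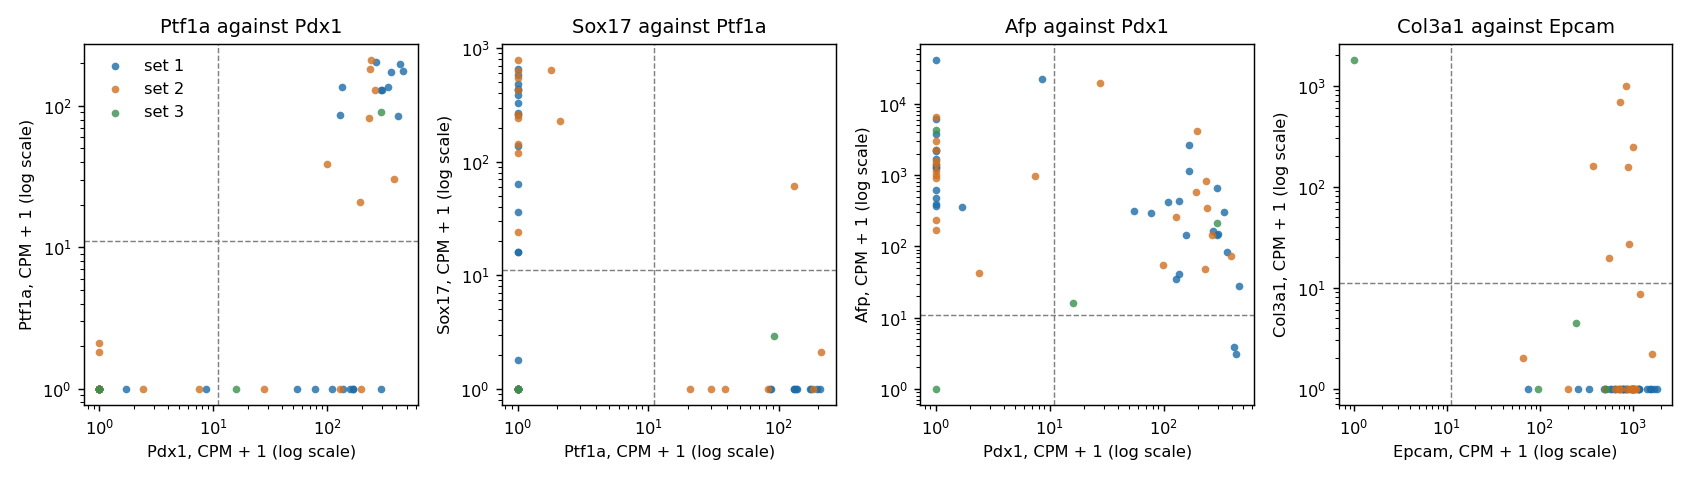
Pairs of genes in the 59 ventral cells (Ptf1a against Pdx1, Sox17 against Ptf1a, Afp against Pdx1, Col3a1 against Epcam), as CPM + 1 on log axes, each point 1 cell coloured by set, with dashed lines at 10 CPM. The Ptf1a holders all lie among the Pdx1 holders, 1 cell lies above both lines for Ptf1a and Sox17, and 7 cells do for Epcam and Col3a1.

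The 17 cells with Pdx1 and Ptf1a carried further genes of the early pancreas. The progenitor homeobox factor Nkx6-1 was held by 14 of them (5.24 to 76.7 CPM, median 26.8) and the homeobox factor Nkx2-2 by 13 (median 22.2 CPM). Cpa1, a carboxypeptidase gene of tip progenitors, was held by 16, with a median of 202 and a highest level of 2431 CPM. Mnx1, a homeobox factor, was held by 8. Sox9, a factor of progenitors and ducts, was held by all 17 at 267 to 1714 CPM, and the Notch ligand gene Jag1 by 16 (median 84.6 CPM). Of the 15 genes on the pancreatic progenitor list these cells held 9 to 14 each, with a median of 11. The acinar factor genes Rbpjl and Bhlha15 were held by 4 and 1 of the 17. Not all listed genes were tied to this class, as the factor gene Onecut1 was held by 57 of all 59 cells.

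The 9 cells with Pdx1 alone lacked most of these genes. None held Nkx6-1, Nkx2-2 or Mnx1, and 2 held Cpa1. Their Pdx1 ran from 14.9 to 292 CPM with a median of 108, against 98.5 to 458 CPM with a median of 295 in the Ptf1a cells, so the ranges overlapped. All 9 held Sox9 (median 321 CPM) and Onecut2, a factor of liver and biliary precursors (median 390 CPM). Rfx6, a winged-helix factor of gut and endocrine precursors, was held by 7 of the 9, with a median of 20.9 and a highest level of 724 CPM, compared with 4 of 17 Ptf1a cells and 4 of 22 cells with Sox17 alone. The intestinal factor gene Cdx2 was held by 1 of the 9 and by no other ventral cell.

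The 22 cells with Sox17 alone had Sox17 at 23.2 to 779 CPM (median 358) and Pdx1 at no more than 7.64 CPM. Tbx3, a T-box factor of hepatoblasts and the biliary bud, was held by 18 (median 46.3 CPM) and by 0 of the 17 Ptf1a cells. The receptor gene Flt1 was held by 13 (median 38.9 CPM), again by 0 of these 17, and the keratin gene Krt7 by 20 of the 22. Cell 16 of set 2, which held Ptf1a with Sox17 and is not among the 17, held Tbx3 at 45.2 and Flt1 at 48.75 CPM. Shh, a ligand gene of gut endoderm, was held by 9. Of the biliary list they held 5 to 8 of 10 genes (Sox17 included), against 4 to 8 in the Ptf1a cells. Hes1, the Notch target, was held by all 22, and the chloride channel gene Cftr by 0 of the 59 cells (upper limit 5.08%). Jag1, also on that list, was held by 8 of these 22 cells (median 5.17 CPM), against 16 of 17 Ptf1a cells.

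Flt1 and Sox17 are also genes of vessel endothelium, so the endothelial list was read beside them. Flt1 was held by 16 ventral cells, Egfl7 by 46, Ramp2 by 38 and Esam by 5, while Pecam1, Cdh5, Kdr, Tek, Tie1 and Emcn were held by 0 of the 59. The summed level of the 10 genes ran from 0 to 672 CPM per ventral cell (median 93.2) and from 0 to 162 per dorsal cell (median 25.2). In the 22 cells with Sox17 alone the highest level of Pecam1 was 9.21 CPM, of Tie1 3.93 and of Cdh5 0.722, and Kdr, Tek and Emcn were at 0. Pecam1 had at least 1 read in 29 of the 59 cells, and in 17 of the 27 dorsal cells. Epcam stood at 255 to 1181 CPM in those 22 cells.

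**Figure D3:**
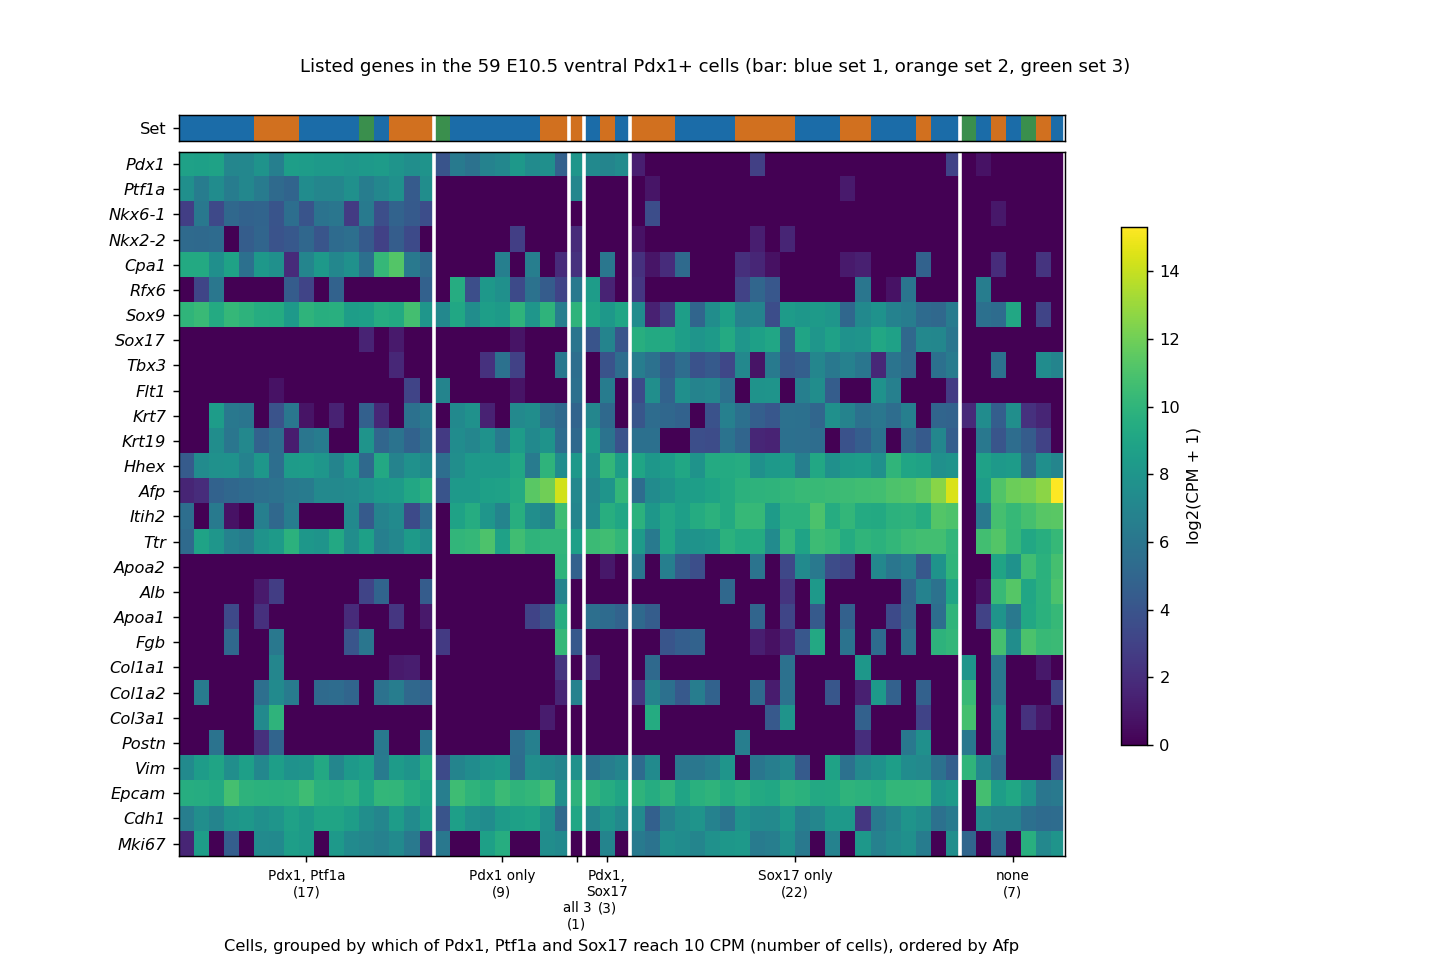
Listed genes in the 59 ventral cells as log2(CPM + 1), each column 1 cell grouped by its combination of Pdx1, Ptf1a and Sox17 and then ordered by Afp, each row 1 gene, and the top bar the set. Nkx6-1, Nkx2-2 and Cpa1 are brightest in the 17 cells with Pdx1 and Ptf1a, Tbx3 is held by 18 of the 22 cells with Sox17 alone, and Alb and the fibrinogen gene Fgb by 5 of the 7 cells with none.

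Afp was held by nearly every ventral cell, over a wide range. It was held by 56 of 59 cells (94.9%, 85.8 to 98.9%), from 14.9 to 41093 CPM with a median of 522. By set the holders were 31 of 33, 22 of 22 and 3 of 4, with medians over all cells of 422, 880 and 113 CPM. Of the 59 cells 3 were below 10 CPM, 9 between 10 and 100, 26 between 100 and 1000, 18 between 1000 and 10000, and 3 above 10000. Those 3 were cell 8 of set 1 (41093 CPM), cell 17 of set 1 (22249) and cell 13 of set 2 (19596). The liver bud cells, all of them holders, ran from 4274 to 45358 CPM with a median of 26676. Dorsal cells held Afp in 15 of 27 cases (55.6%), with a median of 24.4 and a highest level of 586 CPM over all 27.

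Alb was far less widespread than Afp. It was held by 14 ventral cells (23.7%, 13.6 to 36.6%), 8 of 33, 5 of 22 and 1 of 4 by set, from 20.6 to 2479 CPM with a median of 206. Every Alb cell also held Afp, and none of the 12 cells with Afp under 100 CPM held Alb. Alb holders were 3 of 26 cells at 100 to 1000 CPM of Afp, 8 of 18 at 1000 to 10000, and 3 of 3 above 10000. Over the 59 cells log2 levels of Afp and Alb had a Pearson r of 0.578, and 0.610 and 0.552 within sets 1 and 2. Cells of a set share library preparation and depth. In the liver bud 23 of 23 cells held Alb, at 352 to 6213 CPM, and 3 of 27 dorsal cells did, at 19.8 to 38.6 CPM.

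Hepatic genes were not spread evenly over the classes of Pdx1, Ptf1a and Sox17. Afp had a median of 81.5 CPM in the 17 Ptf1a cells (2.04 to 834), 440 in the 9 with Pdx1 alone (14.9 to 19596), 1207 in the 22 with Sox17 alone (41.9 to 22249) and 3784 in the 7 with none (0 to 41093). These ranges overlap, but no Ptf1a cell reached 1000 CPM. The Alb cells were 5 of the 7 with none of the factors, 6 of the 22 with Sox17 alone, 2 of the 17 Ptf1a cells and 1 of the 9 with Pdx1 alone. In the 5 with none, Alb stood at 526 to 2479 CPM, and cells 3 and 8 of set 1 were the highest at 2479 and 1996. The 2 Ptf1a cells held Alb at no more than 30.2 CPM.

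The remaining hepatoblast genes separated into widely and narrowly held ones. Dlk1, a membrane protein gene of hepatoblasts, was held by all 59 cells, the homeobox gene Hhex by 58, the transthyretin gene Ttr by 57 and Prox1 by 55. Dorsal cells held Hhex in 13 of 27 cases. The apolipoprotein gene Apoa2 was held by 21 of 59, Apoa1 by 18, the fibrinogen gene Fgb by 21 and the fetuin gene Ahsg by 1. Apoa2 was held by 0 of 17 Ptf1a cells, 14 of 22 with Sox17 alone and 5 of 7 with none of the factors, where its median was 487 CPM and that of Fgb 1287. In cell 16 of set 2, which held Ptf1a with Sox17, Apoa2 stood at 26.6 CPM. Itih2, a plasma inhibitor chain, was held by all 22 Sox17 cells (median 915 CPM) and by 10 of 17 Ptf1a cells (median 36.0 CPM). Rbp4 and Vtn, which encode plasma carrier and adhesion proteins, ran the other way. Rbp4 had a median of 714 CPM in the Ptf1a cells against 37.4 in the Sox17 cells, and Vtn 1205 against 263. Of 20 listed genes a ventral cell held 1 to 20 (median 11) and a dorsal cell 4 to 11 (median 8).

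Afp and Alb are neighbours on chromosome 5 and lie on the same strand, yet differed in how many cells held them, so their promoters are shown. Each sequence is the 300 bases from 250 before to 50 after the start that RefSeq gives on GRCm38.p6, plus strand. They lie at chr5:90490464-90490763 for Afp and chr5:90460620-90460919 for Alb. The gene coordinates given earlier begin further into these windows, at 90490737 (Afp) and 90460897 (Alb), so a distance depends on the start used. Capitals mark TATAAA, the TATA box.
Afp: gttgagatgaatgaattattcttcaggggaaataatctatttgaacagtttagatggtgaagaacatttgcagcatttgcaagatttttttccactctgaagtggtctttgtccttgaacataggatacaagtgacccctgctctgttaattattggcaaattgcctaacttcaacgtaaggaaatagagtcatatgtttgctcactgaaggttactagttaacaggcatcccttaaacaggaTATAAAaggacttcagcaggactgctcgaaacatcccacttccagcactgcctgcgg
Alb: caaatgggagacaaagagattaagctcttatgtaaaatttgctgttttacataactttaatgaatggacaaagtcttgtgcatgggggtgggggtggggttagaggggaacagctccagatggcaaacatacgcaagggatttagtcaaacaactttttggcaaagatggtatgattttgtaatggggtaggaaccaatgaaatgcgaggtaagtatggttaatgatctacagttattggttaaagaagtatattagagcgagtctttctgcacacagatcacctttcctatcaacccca
TATAAA was found once in Afp, beginning 7 bases before the RefSeq start, and 0 times in Alb. On both strands it occurs in 13.6% of 32851 promoter windows of this length. A match describes these letters and is not a site, and its lack says only that these letters are not in this window.

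The fibrillar collagen genes Col1a1 and Col3a1 were held by few cells, nearly all of them in set 2. Col1a1 was held by 6 of 59 cells (10.2%, 3.82 to 20.8%) at 36.7 to 278 CPM, and Col3a1 by 8 (13.6%, 6.04 to 25.0%) at 18.8 to 1774 CPM. Set 1 had 0 of 33 for both (upper limit 9.09%), set 2 had 5 and 7 of 22, and set 3 had 1 of 4 for both. Without set 1 the share of Col3a1 was 30.8%, and without set 2 it was 2.70%. All 6 Col1a1 cells also held Col3a1. In the dorsal group 0 of 27 cells held Col3a1 (upper limit 11.1%), and 2 held Col1a1, at 20.8 and 21.7 CPM.

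Epcam separated the collagen cells into 1 and 7. Cell 2 of set 3 had Col3a1 at 1774, Col1a1 at 259 and Epcam at 0 CPM, and held 13 of 15 mesenchyme and 0 of 10 epithelial genes. The other 7 (cells 7, 12, 14, 15, 17, 19 and 20 of set 2) held Epcam at 366 to 987 CPM, with a median of 832 against 840 in the 51 cells without either collagen. These 7 held 5 to 9 of the 15 mesenchyme genes (median 8), against 1 to 7 (median 3) in the other 15 cells of set 2. They had 10883 to 11848 detected genes (median 11295), against 8799 to 12227 (median 10671) in those 15. The part of joined cells or stray RNA in these 7 was not tested. The list also holds Fn1 and Vim, the fibronectin and vimentin genes, which were held by 59 and 51 of all 59 cells. Lum was held by 5 and Twist1 by 0. Other collagen genes were held more widely and in each set, Col1a2 by 25 cells (11, 13 and 1 by set) and Col5a1 by 27 (14, 11 and 2).

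**Figure D4:**
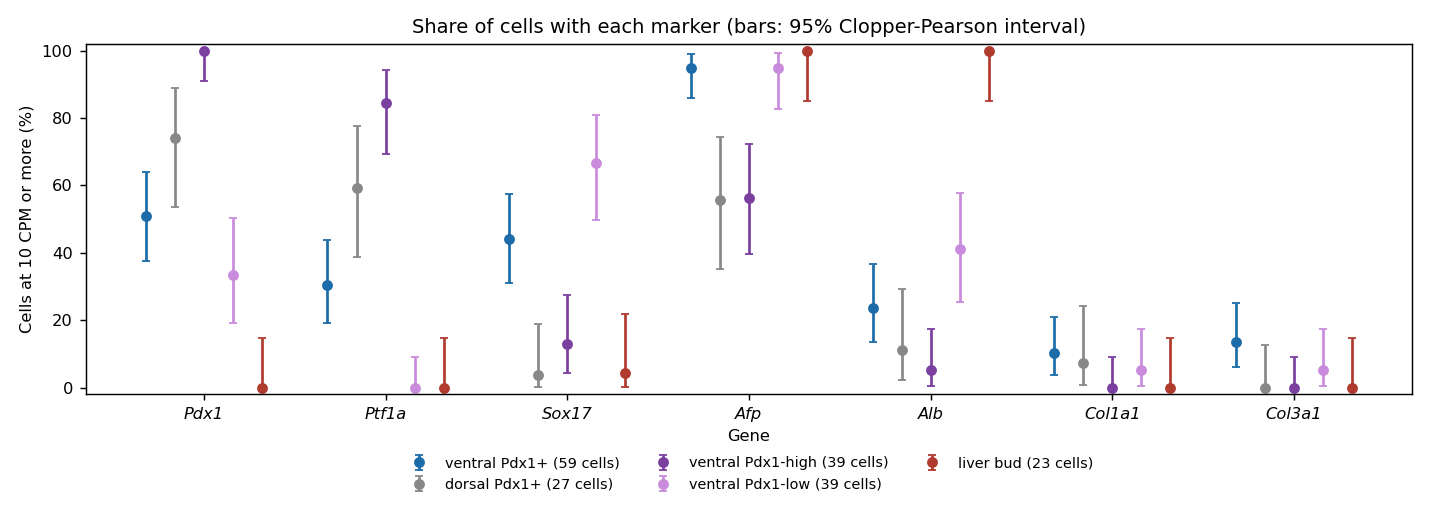
Share of cells at 10 CPM or more, in percent, for the 7 markers in ventral Pdx1+ cells and in 4 background groups of E10.5; points are shares and bars are exact 95% Clopper-Pearson intervals. The ventral Pdx1+ points lie at 50.8% for Pdx1, 30.5% for Ptf1a, 44.1% for Sox17 and 94.9% for Afp.

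Endocrine genes were held by few of the 59 cells: the hormone gene Gcg by 1, the factor gene Neurog3 by 2, Isl1 by 6 and Neurod1 and Pax6 by 0. Rfx6, which was held by 18, was the most widespread of that list. Their summed level over 15 genes had a median of 13.4 CPM per ventral cell (highest 737) and 276 per dorsal cell (highest 71906). Cardiac genes reached at most 88.8 CPM summed over 10 genes, and Myl7 was held by 9 cells. Immune genes were held by 2 cells, both through Csf1r. The erythroid gene Alas2 was held by 11 cells and the stomach factor Sox2 by 0.

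Cycling genes were widespread. Mki67, a nuclear protein gene of dividing cells, was held by 42 of 59 cells and Top2a, a topoisomerase gene, by 46. At least 8 of 16 G2M genes, a number chosen after the values were seen, were held by 41 cells: 19 of 33 in set 1, 18 of 22 in set 2 and 4 of 4 in set 3. By class they were 19 of 22 cells with Sox17 alone, 11 of 17 Ptf1a cells, 5 of 9 with Pdx1 alone and 5 of 7 with none. The Sox17 cells were also deeper (median 775329 reads) than the Ptf1a cells (580295) and those with Pdx1 alone (452284). The part of depth was not tested.

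The genes whose levels followed each marker most closely were taken as the 6 highest and 3 lowest. Over 12008 genes, log2(CPM + 1) was correlated with each marker across the 59 cells, as a description without a test. Rhov, a small GTPase gene, had a Pearson r of 0.966, and 0.991 and 0.944 within sets 1 and 2. It was held by 18 cells, exactly the 18 with Ptf1a. In 191 other ventral E10.5 cells, those of the Pdx1-high, Pdx1-low and Liv2 gates, its r was 0.899 and 32 of 33 Ptf1a holders held it. Kirrel2, a membrane protein gene of the immunoglobulin family, had r = 0.948 (0.914 in the other cells), the ATP receptor gene P2rx1 0.920 (0.866), and the sulfotransferase gene Chst2 0.885 (0.869). Rtn1 followed with 0.879 (0.728) and Nkx6-1 with 0.871 (0.831). The lowest were Ldhb, a lactate dehydrogenase gene, at -0.674 and Reln, which encodes a secreted glycoprotein, at -0.669. In the other cells Reln was held by 139 of 191 and by 0 of the 33 Ptf1a holders.

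Sox17 had looser companions. Efnb2, an ephrin ligand gene, had the highest r at 0.779 (0.713 in the other 191 cells) and was held by 24 of the 26 Sox17 cells. Adam32 followed at 0.756 (0.677), the growth cone protein gene Gap43 at 0.755 (0.534), the sulfotransferase gene Chst15 at 0.747 (0.790), the matrix protein gene Thbs1 at 0.743 (0.781) and Crabp1, a retinoic acid binding protein gene, at 0.729 (0.613). The lowest were the arginase gene Arg1 at -0.663 and Pdx1 itself at -0.648. Within set 2 alone only 1 of the 6 remained among the 6 highest, so the order of these genes is not firm.

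Afp was followed mostly by plasma protein genes, Fabp5 aside, and Col3a1 by genes that include stromal ones. For Afp the highest were Itih2 (r = 0.725, and 0.871 in the other cells), the fatty acid binding protein gene Fabp5 (0.692 and 0.685), Ttr (0.664 and 0.765), Apoe (0.645 and 0.683), Apoa2 (0.627 and 0.569) and the plasminogen gene Plg (0.622 and 0.530). Within set 2, 0 of these 6 remained among the 6 highest. For Col3a1 the highest were Cd248, a stromal membrane protein gene, at 0.958, Cyp1b1 at 0.949, Tmem119 at 0.945, Dnm3os at 0.934, the basement membrane gene Nid1 at 0.917 and the proteoglycan gene Bgn at 0.900. These rest on 8 cells. Only 2 of the other 191 cells held Col3a1, and there Cd248 had r = 0.971 and Cyp1b1 -0.009.

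Between the markers themselves, log2 levels over the 59 cells had r = 0.716 for Pdx1 with Ptf1a, -0.648 for Pdx1 with Sox17, -0.438 for Pdx1 with Afp and -0.526 for Ptf1a with Afp. Each sign was the same within set 1 and within set 2. Sox17 with Afp had r = 0.250 over all cells but 0.414 in set 1 and -0.143 in set 2.

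Reads of each set were summed and compared with the dorsal sets in edgeR by its quasi-likelihood test, with p-values adjusted over 17433 genes by Benjamini-Hochberg. Levels in this comparison are CPM of the summed reads scaled by TMM. At an adjusted p under 0.05, 82 genes passed (0.470% of those tested), 14 higher (0.0803%) and 68 lower (0.390%) in ventral sets. By an unadjusted p under 0.05, 1575 did. With only the 2 groups compared in the model, 2 genes passed the adjusted threshold, 1 higher and 1 lower in ventral sets. The 14 higher calls depend on each set but dorsal set 2: 0 were higher without dorsal set 3 (21 genes in all), 1 without dorsal set 1 (55), and 7, 6 and 5 without ventral sets 1, 2 and 3 (27, 28 and 36). Without dorsal set 2 the count was 144, 20 of them higher. In dorsal set 3, 1 of 6 cells held Pdx1, and the part of this in the counts was not tested.

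Of the 7 markers, Afp and Sox17 passed. Afp stood at 2282, 2231 and 912 CPM in ventral sets 1 to 3 and at 39.9, 141 and 41.8 in the dorsal sets. No ventral set overlapped a dorsal one, which was also so for 2276 of the 17433 genes tested (13.1%). The log2 fold change of Afp was 4.60 (SE 1.07, edgeR adjusted p = 0.0404). Over 12 alternatives its adjusted p ran from 0.000355 to 0.393, and it passed in 1 of the 6 fits that left out a set. Sox17 stood at 138, 203 and 0.684 CPM in the ventral sets and at 0, 4.79 and 0 in the dorsal ones. Ventral set 3, with no Sox17 cell, lay within the dorsal range. The log2 fold change was 6.06 (SE 1.46, edgeR adjusted p = 0.0481, 0.0078 to 0.611 over 12 alternatives), and the call held in 2 of the 6 fits that left out a set.

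The remaining 5 markers did not pass. Pdx1 stood at 127, 82.8 and 107 CPM in ventral sets 1 to 3 and at 181, 258 and 3.63 in the dorsal sets, a log2 fold change of -0.48 (SE 0.89, edgeR adjusted p = 0.960). Ptf1a stood at 43.1, 28.4 and 32.1 CPM against 65.8, 115 and 0, a log2 fold change of -0.80 (SE 1.42, edgeR adjusted p = 0.958). For both factors the ventral sets lay between dorsal set 3 and the other dorsal sets. Alb stood at 122, 104 and 106 CPM against 3.84, 2.74 and 1.53, sets that did not overlap, as for 13.1% of genes tested. Its log2 fold change was 5.33 (SE 1.98, edgeR adjusted p = 0.353). It passed in 1 of 12 alternatives, the model of only the 2 groups compared (edgeR adjusted p = 0.0231). Col1a1 had a log2 fold change of 4.10 (edgeR adjusted p = 0.652) and Col3a1 of 10.09 (0.232), both with sets that overlapped. For Col3a1 no cell of the dorsal sets held the gene. With 3 sets a side and set 3 of 4 cells, a missed threshold does not show that the sides were alike.

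Further genes were higher in ventral sets. Kitl, the ligand gene of the receptor KIT, stood at 75.0, 125 and 146 CPM against 0, 4.67 and 0.191 (log2 fold change 6.05, SE 1.09, edgeR adjusted p = 0.00523), a call that held in 5 of 6 fits without a set. Ppic, a cyclophilin gene, stood at 101, 104 and 121 CPM against 11.9, 17.8 and 7.06 (edgeR adjusted p = 0.0112, 4 of 6). These sets lay close together on the ventral side, unlike Reln at 75.0, 113 and 327 CPM against 0.128, 1.03 and 0.191. Plg had no dorsal read and stood at 34.8, 43.3 and 39.7 CPM, at least 293-fold higher against a floor of 3 reads over the dorsal group. The guanylate cyclase gene Gucy1a3, also without a dorsal read, was at least 123-fold higher. Fgg, a fibrinogen chain, and the semaphorin gene Sema3c had log2 fold changes of 3.42 and 3.17 (edgeR adjusted p = 0.0296 and 0.0463). Of the fits without a set, the Plg and Sema3c calls held in 0 of 6, Fgg in 1, Gucy1a3 in 2 and Reln in 3.

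Of the 68 genes lower in ventral sets, 9 are on the endocrine list and 8 were named by the size of their change. Neurod1, an endocrine bHLH factor, had 0 ventral reads and was at least 2860-fold lower. The receptor gene Gfra3 was at least 972-fold lower, and the neuropeptide genes Cartpt and Gal at least 555-fold and 476-fold, all without a ventral read. These bounds set a floor of 3 ventral reads against dorsal reads pooled over all sets. Dorsal set 2 was the lowest for Cartpt, Gal and Gcg. In dorsal sets 1 to 3 Cartpt stood at 44.9, 0.114 and 84.6 CPM, Gal at 36.2, 0.684 and 75.2, and Gcg at 6316, 7.07 and 38661. Gcg, Slc38a5, Disp2 and Gng4 passed as well. The calls of Neurod1, Slc38a5, Cartpt, Disp2 and Gng4 held in 6 of 6 fits without a set, Gfra3 in 4, Gcg in 3 and Gal in 1. With only the groups compared in the model, Neurod1, Slc38a5, Disp2 and Gng4 did not pass (edgeR adjusted p = 0.113, 0.0869, 0.0869 and 0.0697).

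**Figure D5:**
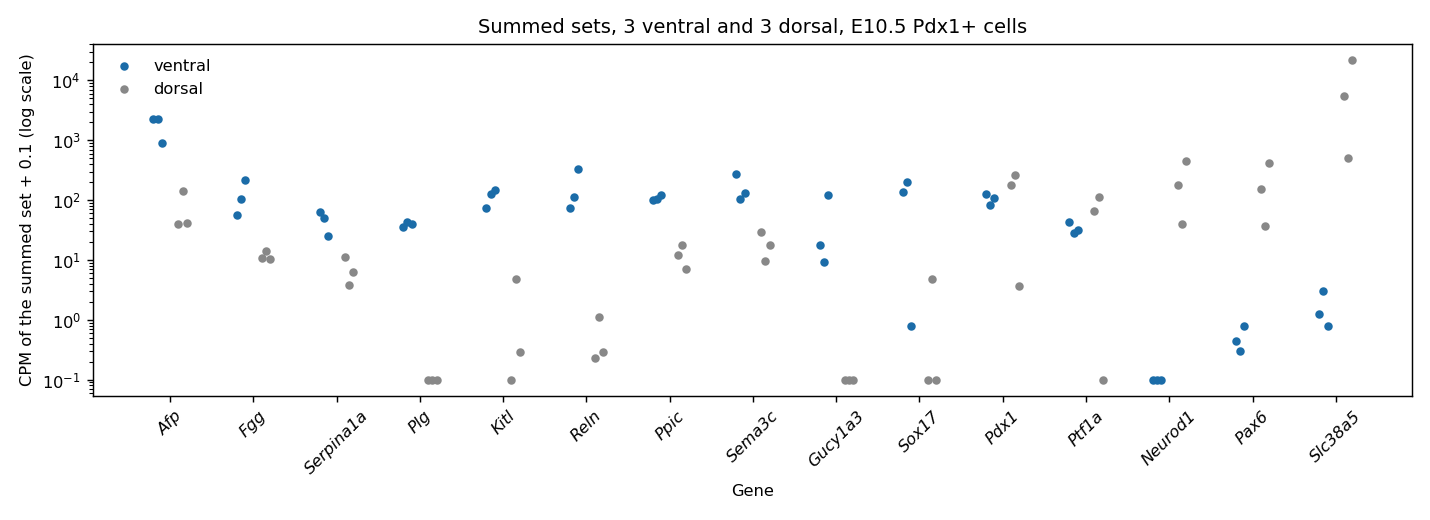
TMM-scaled CPM of the summed reads in each of the 3 ventral and 3 dorsal sets for Pdx1, Ptf1a, Sox17, Afp and other named genes, on a log axis after adding a small constant, so that a set without reads lies at the bottom; each point is 1 set. The ventral sets lie above the dorsal sets for Afp, Kitl and Ppic, and overlap them for Pdx1, Ptf1a and Sox17.

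The listed genes fell as follows in that comparison, against a median log2 fold change of 0.00 over all genes. Of 15 pancreatic progenitor genes 0 passed, with a median of -0.27. Of 9 biliary genes tested 1 was higher, Sox17, with a median of 0.38. Of 20 hepatoblast genes 3 were higher, Afp, Fgg and the antitrypsin gene Serpina1a, 0 were lower, and the median was 2.66 (2.46 with genes lacking reads on a side set to their bound). Of 15 mesenchyme genes 0 passed, with a median of 3.35 (3.30 so set). Of 15 endocrine genes 9 were lower, among them Neurod1, Pax6 and Isl1, with a median of -7.83. Of 14 Notch and BMP genes only the ligand gene Dll3 passed, lower, and of 16 G2M and 16 S phase genes 0 did.

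Bulk libraries of E10.5 Pdx1-GFP positive cells, 2 a side, gave a second reading of the ventral pool. In bulk, fewer cells of a type and less RNA per cell cannot be told apart. Pdx1 stood at 108 and 122 CPM in the ventral libraries, where the mean over the 59 cells was 112, and at 251 and 257 in the dorsal ones. Sox17 stood at 143 and 136 against 0.342 and 0.106 CPM, with a cell mean of 139. Ptf1a stood at 14.4 and 13.9 against 42.1 and 43.0 CPM, with a cell mean of 37.7. Sox17 thus stood above Ptf1a in both ventral libraries and in the mean over all 59 cells, but not in the 4 cells of set 3 (means of 0.480 and 22.5 CPM). CPM is not scaled to transcript length, so this is an order of reads and not of transcript numbers.

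Hepatic and collagen genes were also read in bulk. Afp stood at 1742 and 1370 CPM against 67.1 and 41.3, and Alb at 151 and 126 against 2.16 and 2.54. Col1a1 stood at 368 and 225 CPM in the ventral libraries against 9.568 and 8.555 in the dorsal ones, with a ventral cell mean of 14.2. Col3a1 stood at 244 and 139 against 20.7 and 13.8 CPM, with a cell mean of 68.8 (0, 104 and 444 in sets 1 to 3). The cardiac myosin gene Myh6 stood at 828 and 519 CPM in the ventral libraries against 6.265 and 0.317, with a cell mean of 0.695. Collagen and cardiac reads were therefore higher in the ventral bulk pool than in the mean over the 59 cells, and the reason was not tested. For Col3a1 the mean of set 3 lay above both ventral libraries.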

How the data were processed

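Single cells were prepared by Smart-seq2 and bulk libraries by poly(A) selection from sorted cells, per the labels' protocols. Alignment to GRCm38 was by TopHat2 2.1.0 and counting by HTSeq 0.6.0, per the submitters' processing notes. Neither the annotation release nor any read filter is given in the sources used here. The authors deposited counts of reads for 92 spike-ins and 40824 genes. Their RPKM tables were not used.

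CPM per cell used the total of reads on genes without spike-ins. Shares, joint holding and correlations are descriptions without tests. For the comparison of sides, counts were summed per set (37 sets of 3 or more cells in 11 groups, 1 model), filtered with filterByExpr and TMM-scaled, then tested by the quasi-likelihood test of edgeR 4.0.16 (R 4.3.3) under Benjamini-Hochberg adjustment. Standard errors restate the test. The fit was also run on counts simulated with its own estimates of spread, which cannot show whether those estimates suit these sets. The members, markers, gene lists and tests were chosen with earlier results of these data known. Genes named were the 7 markers, up to 5 members per list by share or adjusted p, at most 8 higher and 8 lower genes (average log2 CPM at least 3, sets that do not overlap), and 6 highest and 3 lowest correlations. Others named were chosen after their values were seen. The alternatives tried were RLE scaling, DESeq2 1.42.0, no filter, a replicate block, only the groups compared, thinned cells, other levels than 10 CPM, other correlations and sets left out.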

Additional observations from a re-analysis of the deposited data

How the results depend on the processing

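The count of 82 genes between ventral and dorsal sets was 83 with RLE scaling and 107 without a filter. It was 2 with only the groups compared in the model, 199 with cells thinned to 200000 reads and 333 with DESeq2, and 21 to 144 without 1 set. With the set number as a replicate block it was 53 (15 higher and 38 lower), of which 46 were among the 82. The numbers were not taken as pairs, since the labels do not say that a set number pairs groups. Same-numbered sets of the sides had correlations of 0.0508, 0.0421 and 0.0722, and differently numbered ones -0.0667 to 0.0498. With 3 sets a side these values cannot decide whether the numbers pair. Of 261 values of 22 named genes 196 kept their side of the threshold and their direction, 64 lost the threshold, 1 gained it (Alb, only the groups compared) and 0 turned.

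Shares moved by more than 1 SD between sets in 4 of 49 values. Over the 7 markers that SD ran from 1.16 percentage points for Alb to 28.6 for Sox17, with the 4 cells of set 3 as 1 of the sets. For Col3a1 it was 16.75, so the change from 13.6% to 2.70% without set 2 did not count as a move. The small count therefore does not show that the shares were stable. Pdx1 was at 46.2 to 54.1% and Col3a1 at 2.70 to 30.8% without 1 set. Alb was at 27.1% at 5 CPM and 25.4% with thinned cells, and Pdx1 with Alb at 10.2% at 5 CPM. Of the 6 genes that followed Ptf1a, 3 remained among the 6 highest within set 2. Of those of Sox17, 3 remained by Spearman's rho, 3 within set 1 and 1 within set 2, and of those of Afp 2 by Spearman's rho and 0 within set 2. Leaving out cells 2 and 3 of set 3, chosen after seeing the data, gave Col3a1 at 12.3% and Afp at 96.5%. Leaving mitochondrial genes out of the total was not run, since 0 such genes are listed. Depth limits what can be said of set 3, with 4 cells and a median of 340523 reads.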
